A study of Homo sapiens with 32 samples.

Results

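The E2F transcription factors and the RB family of pocket proteins were followed across 32 RNA libraries of 2 human cell lines exposed to genotoxic conditions. Members were taken by gene symbol, and all 10 were found among the 60107 genes counted: E2F1, E2F2, E2F3, E2F4, E2F5, E2F7, E2F8, RB1, RBL1 and RBL2. HEK293T is a line derived from human embryonic kidney, and U2OS is an osteosarcoma line. Camptothecin (CPT) traps topoisomerase 1 on DNA, and ATM is a checkpoint kinase that responds to DNA breaks.

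Comparisons of 4 libraries against 4 were available, and libraries are named here by the replicate number in their titles. Replicates 26 to 29 are labelled U2OS with CPT and replicates 30 to 33 U2OS with DMSO, the vehicle. Replicates 18 to 21 carry the label HEK293T ATM KO, but the study describes sequencing of HEK293T cells after an ATM inhibitor and not after a knockout, so they are taken as inhibitor libraries and set against replicates 22 to 25, labelled HEK293T DMSO. The general drug protocol of the study was 24 h of treatment and 48 h of recovery, unless stated otherwise. The labels give these times for HEK293T and describe U2OS cells only as grown for 72 h. The remaining 16 libraries carry the labels HEK293T CPT (replicates 2, 4, 6 and 8), HEK293T DMSO (3, 5, 7 and 17), U2OS ATM KO (10, 12, 14 and 16) and U2OS WT (1, 11, 13 and 15). The U2OS ATM KO was made with CRISPR/Cas9 and individual clones were picked, so that a clone and the loss of ATM cannot be told apart. The study describes 4 independent biological repeats for each comparison.

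In 14 of these 16 libraries the expressed genes were those of the other cell line than labelled. S100A6, a gene of mesenchymal lines, stood at 106 to 325 CPM (counts scaled to 1000000 counts on genes) in the 16 libraries with a U2OS profile and at 0 to 2.39 CPM in the 16 with a HEK293T profile. NEFM, a neurofilament gene expressed in HEK293T, stood at 0 to 1.41 and at 73.3 to 337 CPM. Both come from marker lists, and a profile is that of the list with the higher mean log2 CPM. The other U2OS markers also had ranges apart. On the HEK293T list LIN28B was apart (6.35 to 18.5 and 61.0 to 102 CPM), and PAX2, EYA1 and SALL1 overlapped. LHX1 went the other way, with medians of 17.9 CPM in the U2OS and 8.13 CPM in the HEK293T profile. Replicates 10, 12, 14 and 16 had the HEK293T profile, as did 11, 13, 15 and 17, and replicates 1 to 8 had the U2OS profile. These libraries are therefore compared within a profile, replicates 10, 12, 14 and 16 against 11, 13, 15 and 17 and replicates 2, 4, 6 and 8 against 1, 3, 5 and 7. Each of these control sets mixes labels, and no direction for a drug or a genotype is drawn from them. Replicates 18 to 33 matched their labelled line. Depth ran from 1232674 to 6362433 counts on genes per library, with the 2 lowest in replicates 2 and 1.

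E2F factors bind the promoters of genes for DNA synthesis and cell division, and pocket proteins bind E2F factors and turn those promoters down. E2F1, E2F2 and E2F3 are activators held by RB1, E2F4 and E2F5 work as repressors together with RBL1 (p107) and RBL2 (p130), and E2F7 and E2F8 repress without a pocket protein or a DP partner. Cyclin-dependent kinases phosphorylate the pocket proteins and release E2F, and CDKN1A (p21), a target of p53, blocks those kinases. HEK293T cells carry adenovirus E1A and SV40 large T antigen, both of which bind pocket proteins, whereas U2OS cells keep RB1 and lack the CDK inhibitor p16. Several family genes are known to be E2F targets themselves.

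Promoter stretches of 5 members are shown, the 4 that hold the letters of an E2F site (E2F1, E2F2, E2F3 and RBL1) and, of the 4 that do not, E2F7. E2F1, E2F2 and RBL1 fell in U2OS cells with CPT. E2F7 rose with overlapping groups, and its call was lost without replicate 27, 28, 31 or 33. E2F3, with a match, was not called there (log2 0.04), nor were E2F4, RB1 and RBL2, without one. Each is the 80 bases before the annotated start, 5′ to 3′ on the strand of the gene, from RefSeq GRCh38.p14. They lie at chr20:33686386-33686465 on the minus strand (E2F1), chr1:23531234-23531313 on the minus strand (E2F2), chr6:20401799-20401878 on the plus strand (E2F3, the start with a match), chr20:37095998-37096077 on the minus strand (RBL1) and chr12:77065570-77065649 on the minus strand (E2F7). Capitals mark a match.
E2F1: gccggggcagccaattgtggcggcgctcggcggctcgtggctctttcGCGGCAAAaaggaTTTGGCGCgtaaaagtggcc
E2F2: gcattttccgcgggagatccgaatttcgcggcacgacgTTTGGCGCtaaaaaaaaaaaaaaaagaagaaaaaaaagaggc
E2F3: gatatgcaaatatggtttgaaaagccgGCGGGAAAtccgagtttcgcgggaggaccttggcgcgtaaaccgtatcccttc
RBL1: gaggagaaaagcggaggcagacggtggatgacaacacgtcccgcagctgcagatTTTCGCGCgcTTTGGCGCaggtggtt
E2F7: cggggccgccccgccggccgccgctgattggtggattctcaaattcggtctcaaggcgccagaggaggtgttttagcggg

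The letters searched were TTTCCCGC, TTTGGCGC, TTTCGCGC and TTTGCCGC on either strand, in windows of 250 bases before and 50 after the start. Of 35116 such windows, 3.31% held at least 1 match. Among the 8 members in the promoter table, E2F1, E2F2, E2F3 and RBL1 held one, and E2F4, E2F7, RB1 and RBL2 did not. The first base of a match lay 33 and 20 bases before the start in E2F1, 42 in E2F2, 26 and 16 in RBL1, and 53 at 1 of the 2 annotated starts of E2F3. E2F5 and E2F8 are named only.

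In U2OS cells with DMSO, CPM after TMM scaling (the scale of all gene levels from here on, other than summed marker levels) placed E2F3, RBL2, RB1 and E2F7 highest, with means between 51.3 and 56.4 CPM and overlapping ranges. E2F1 (35.3 ± 5.65, SD, n = 4) and E2F4 (29.4 ± 1.63) followed, again with overlapping ranges. RBL1 stood at 24.0 ± 0.702, E2F2 at 16 ± 1.70 and E2F8 at 14.3 ± 3.30, the last 2 overlapping. E2F5 was lowest at 4.62 ± 1.85 CPM, with 9 to 23 counts per library. A 3′ tag is counted once per transcript whatever the length, so levels of different genes are set side by side without a length correction.

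In HEK293T cells with DMSO, E2F3 was highest at 134 ± 2.89 CPM and did not overlap RBL2 (62.9 ± 4.15), which in turn did not overlap RB1 (50.5 ± 4.10). RB1 and RBL1 (48.4 ± 2.13) overlapped. E2F4 (34.2 ± 4.47) overlapped both E2F1 (35.3 ± 1.34) and E2F7 (31.6 ± 2.01), which did not overlap each other. E2F5, E2F8 and E2F2 came last, with means of 15.9 to 22.6 CPM and overlapping neighbours. Between the 2 DMSO groups, 4 of the 10 members differed by edgeR's quasi-likelihood test at a Benjamini-Hochberg adjusted p under 0.05, called changed here, against 62.1% of all genes tested. Of the members called, 1 was higher in U2OS (32% of genes) and 3 were lower (30.1%), and these 3 also passed an absolute log2 fold change over 1, as did 39.9% of genes.

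E2F3, an activator, was 2.37-fold lower in U2OS than in HEK293T cells (log2 fold change −1.23, SE 0.13, adjusted p = 3.14e-10). The p107 gene RBL1 was 2.02-fold lower (−1.0, SE 0.13, adjusted p = 2.66e-08), and E2F5 was 4.89-fold lower (−2.29, SE 0.22, adjusted p = 6.42e-11). E2F7 was 1.62-fold higher (0.71, SE 0.16, adjusted p = 1.97e-04). E2F1 averaged 35.3 CPM in both lines, with a 95% interval of −0.25 to 0.27 for the log2 difference, and E2F2 had an interval of −0.30 to 0.35. RB1 differed by 0.05 on the log2 scale (interval −0.22 to 0.32), and E2F4, E2F8 and RBL2 also missed the threshold. E2F8 was called lower in U2OS without replicate 25 (log2 −0.43, adjusted p = 0.0485). The groups did not overlap for 4 members lower and 1 higher in U2OS, as for 26.7% and 28.1% of genes. RBL2 was among them, from 51.4 to 59.3 against 60.0 to 69.1 CPM, with an adjusted p of 0.184. The DMSO libraries of this comparison also serve as controls for the CPT and the inhibitor comparisons. The other libraries did not repeat the closeness of E2F2. It stood at 4.26 to 15.7 CPM in replicates 1 to 8 (U2OS profile) and at 16.2 to 30.1 CPM in replicates 10 to 17 (HEK293T profile). E2F1 overlapped there, at 27.2 to 42.0 and 32.8 to 45.7 CPM. These sets mix labels, and the difference between them was not tested.

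**Figure D1:**
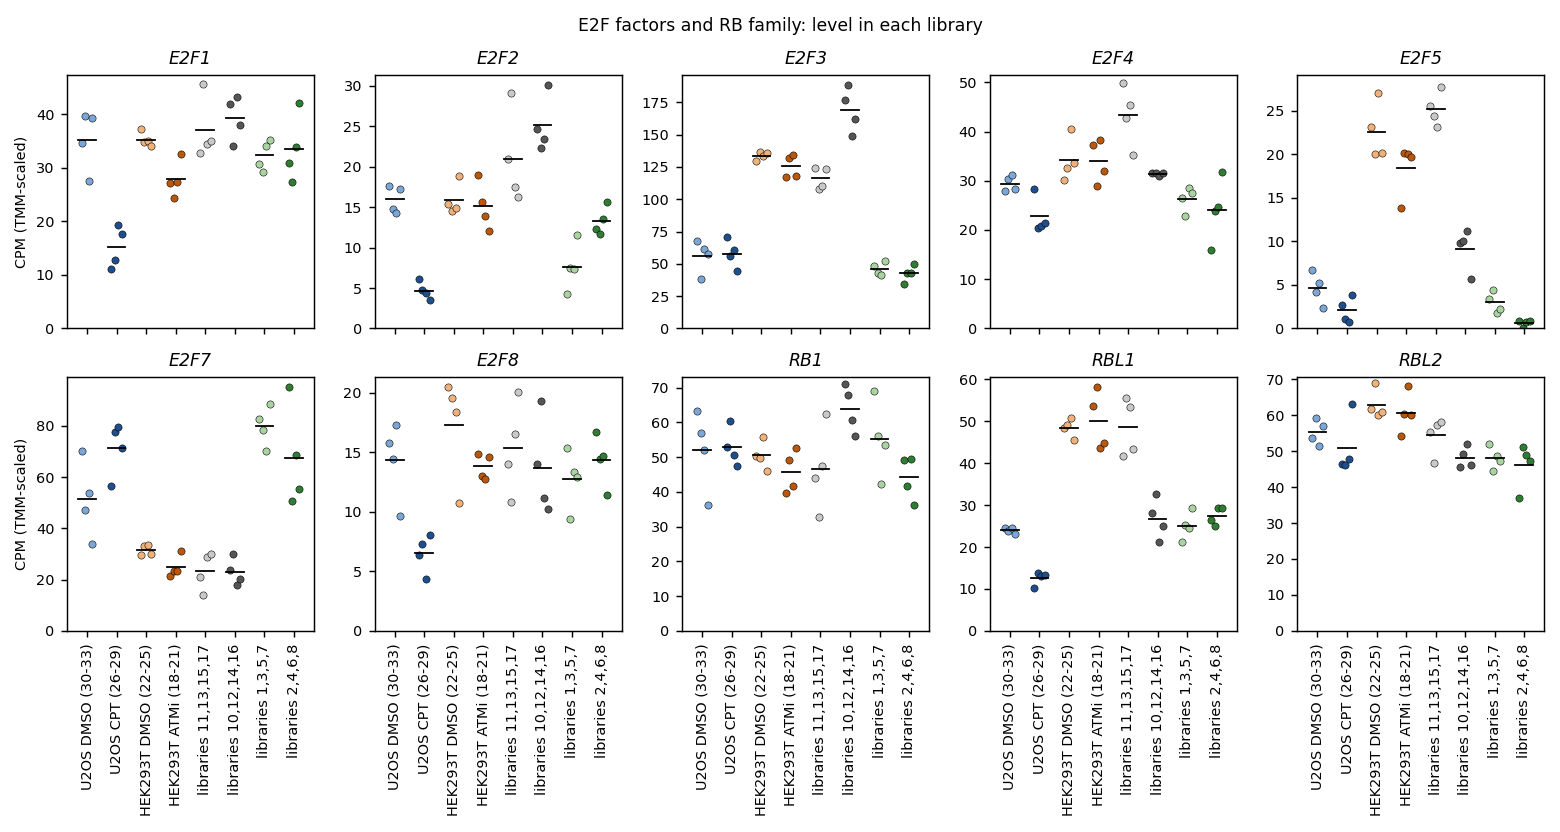
Level of each member in TMM-scaled CPM (vertical axes, from 0), 1 point per library and a line at the mean of 4, in the 8 sets of libraries. E2F1, E2F2, E2F8 and RBL1 are lower in all 4 U2OS CPT libraries than in any U2OS DMSO library, and E2F3, E2F5 and RBL1 are higher in HEK293T than in U2OS DMSO libraries.

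In U2OS cells with CPT, E2F1, E2F2, E2F5, E2F8 and the p107 gene were called lower and E2F7 higher. E2F4 was not called, and the intervals of E2F3, RB1 and RBL2 contained 0. Of the 10 members, 5 fell and 1 rose, and over all 19080 genes tested 31.9% were called, 15.3% lower and 16.6% higher. With the added cutoff of an absolute log2 fold change over 1, 4 members were called, all lower, where 13.5% of genes were called. These were E2F1, E2F2, E2F5 and E2F8, of which E2F5 had 2 to 11 counts per CPT library. In 4 members, E2F1, E2F2, E2F8 and RBL1, all CPT libraries lay below all DMSO libraries, as for 14.6% of genes, and in 0 members above them (15.5%). The median log2 change of the 10 members was −0.64 and that of all genes 0.01. In bulk RNA, fewer cells that express a gene and less RNA per cell cannot be told apart.

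Among the activators, E2F2 changed most. It stood at 17.6, 14.8, 14.2 and 17.3 CPM in the DMSO libraries and at 6.07, 4.73, 4.32 and 3.52 CPM with CPT, behind 10 to 18 counts in each CPT library. The groups were far apart, with a 3.43-fold lower mean (log2 −1.76, SE 0.22, adjusted p = 1.87e-07).

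E2F1, the activator whose promoter holds 2 matches above, stood at 34.6, 39.6, 27.5 and 39.3 CPM with DMSO and at 11.1, 12.7, 19.3 and 17.6 CPM with CPT. The highest CPT library stayed below the lowest DMSO library, and the mean was 2.32-fold lower (log2 −1.21, SE 0.17, adjusted p = 1.71e-06). E2F3 did not follow the other activators. It stood at 67.9, 38.6, 61.6 and 57.4 CPM with DMSO and 70.5, 56.0, 60.5 and 44.7 CPM with CPT, with overlapping groups and an interval of −0.25 to 0.34 for its log2 change.

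The atypical repressors E2F7 and E2F8 went in opposite directions. E2F8 stood at 15.8, 14.5, 17.3 and 9.70 CPM with DMSO and at 6.41, 7.27, 4.32 and 8.10 CPM with CPT. All 4 CPT libraries were lower than any DMSO library, by 2.20-fold in the mean (log2 −1.10, SE 0.23, adjusted p = 3.75e-04). E2F7, which is known as a direct p53 target, stood at 70.3, 47.2, 53.8 and 34.1 CPM with DMSO and at 56.7, 77.5, 79.4 and 71.1 CPM with CPT. It rose 1.39-fold (log2 0.48, SE 0.16, adjusted p = 0.0190), but the groups overlapped, and without replicate 27, 28, 31 or 33 the adjusted p lay between 0.0688 and 0.0767.

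The repressor E2F5 was called lower (log2 −1.07, SE 0.41, adjusted p = 0.0450) on 9 to 23 counts per DMSO library and 2 to 11 per CPT library, so that CPT libraries lay near the floor of 3 counts. Without replicate 26, 27, 28, 30, 31 or 32 its adjusted p lay between 0.0535 and 0.155. E2F4 stood at 27.8, 30.3, 31.2 and 28.3 CPM with DMSO and at 28.3, 20.4, 20.8 and 21.5 CPM with CPT. Replicate 26 alone reached the DMSO range, and the change of −0.36 (SE 0.15) had an adjusted p of 0.0698, or 0.0213 without that library.

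The 3 pocket protein genes separated. RBL1 stood at 24.6, 23.8, 24.4 and 23.1 CPM with DMSO and at 10.1, 13.8, 13 and 13.4 CPM with CPT, close within each group and 1.91-fold lower with CPT (log2 −0.92, SE 0.17, adjusted p = 5.54e-05). RB1 ranged from 36.2 to 63.3 CPM with DMSO and from 47.5 to 60.4 CPM with CPT (log2 0.04, interval −0.25 to 0.32). RBL2 ranged from 51.4 to 59.3 and from 46.2 to 63.0 CPM (log2 −0.11, interval −0.36 to 0.15). With CPT, mean levels were 12.6 ± 1.67 CPM for RBL1, 52.9 ± 5.45 for RB1 and 50.9 ± 8.11 for RBL2.

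The lists of genes around the family moved as follows in U2OS cells with CPT. Of 30 G1/S genes, the DNA synthesis targets of E2F, 24 fell and 0 rose, with a median log2 change of −0.65. MCM6, a subunit of the replicative helicase, fell from 81.7 ± 6.17 to 23.4 ± 1.06 CPM (log2 −1.80, SE 0.13), and MCM7 (−1.48), MCM2 (−1.39) and GINS2 (−1.24) fell too. Of 25 G2/M genes, which the MuvB complex binds, 24 fell and 0 rose, with a median of −0.88. Their leading genes were PLK1 (−1.47, a mitotic kinase), KIF20A (−1.40), MKI67 (−1.14, the Ki-67 proliferation marker) and BIRC5 (−1.22).

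Of the 8 MuvB core and activator genes, 4 fell and 1 rose (median −0.59). LIN52, the subunit through which MuvB meets p107 and p130, fell by 1.19 on the log2 scale, and FOXM1 (−0.79), RBBP4 (−0.58) and LIN9 (−0.60) fell as well. MYBL1 rose by 0.45 and is named after its value was seen, and LIN37 had at most 2 counts in any library of this comparison. None of the 3 dimer partner and E2F6 genes was called, with TFDP1 at −0.26, E2F6 at −0.27 and TFDP2 at 0.00. TFDP2 ranged from 6.55 to 14.9 CPM with DMSO and from 7.40 to 15.2 CPM with CPT.

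Among 16 tested cyclin, CDK and CDK inhibitor genes, 4 rose and 7 fell (median −0.42). CDKN1A rose from 98.1 ± 5.65 to 460 ± 26.8 CPM (log2 2.24, SE 0.11, adjusted p = 1.85e-16), the cyclin D2 gene CCND2 rose by 1.62, and CDKN1B (p27) fell by 1.65. CCNA2, cyclin A2 and an E2F target, fell by 1.15. All 10 p53 targets rose (median 1.69), led by GDF15 (3.63), MDM2 (2.0), RRM2B (1.86) and ZMAT3 (1.76). Of 7 corepressor genes, 4 fell and 1 rose, with SUV39H1, a histone methyltransferase that binds RB1, at −1.38, SIN3A at −0.72, HDAC2 at −0.39 and SIN3B at 0.83. CDKN2A, which encodes p16, had at most 3 counts in any of these 8 libraries and is named after its values were seen.

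Markers of the line moved as well. Of 7 U2OS markers, 6 rose with CPT (CD44 2.72, CAV1 2.05, TIMP1 1.44 and S100A6 1.23 on the log2 scale), and their summed level was 1888 to 2090 CPM with CPT and 945 to 1107 CPM with DMSO. Of 5 tested genes on the HEK293T marker list, 2 fell (LHX1 −1.35, EYA1 −1.32), and LIN28B (−0.40), SALL1 (−0.46) and PAX2 (0.46) were not called. LHX1 goes against that list, since it was higher in U2OS than in HEK293T DMSO libraries (20.3 ± 3.80 against 6.45 ± 1.77 CPM). The summed level of the 6 genes was 27.1 to 33.6 CPM with CPT and 49.2 to 59.5 CPM with DMSO. Without LHX1, set aside after its values were seen, it was 20.9 to 24.6 and 30.3 to 40.1 CPM. NEFM was at or near 0. The part of these shifts in the members' changes was not tested.

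**Figure D2:**
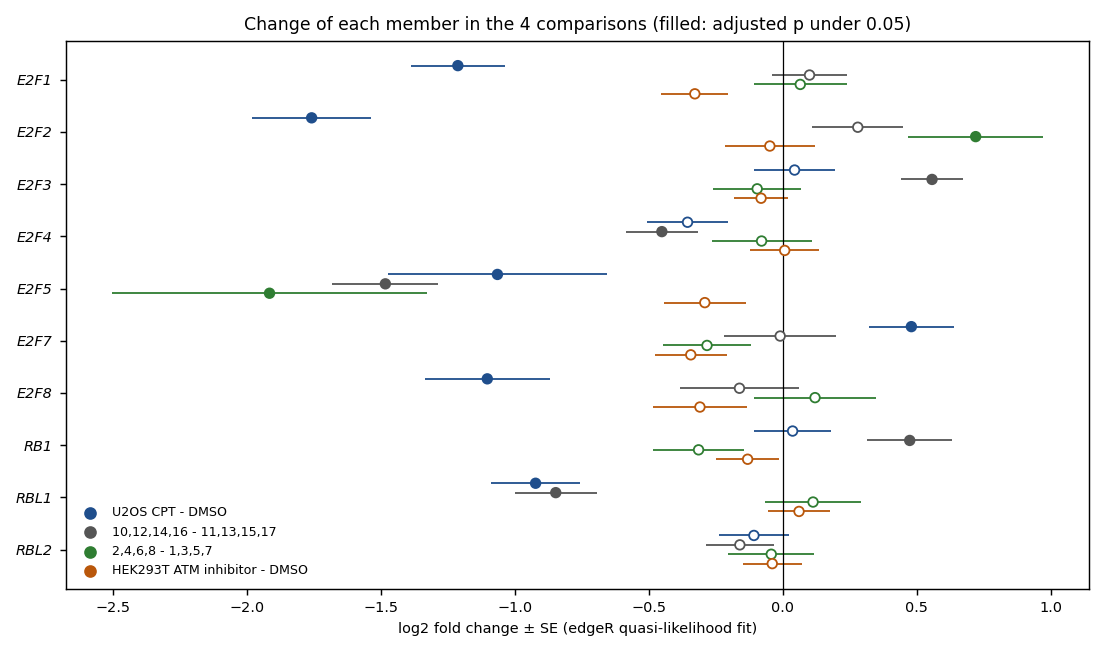
Log2 fold change of each member with its SE (horizontal axis) in 4 comparisons of 4 libraries against 4, filled where the adjusted p was under 0.05. In U2OS cells with CPT, E2F1, E2F2, E2F5, E2F8 and RBL1 lie left of 0 and E2F7 right of it, and no point of the ATM inhibitor comparison is filled.

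The ATM inhibitor left no member called in HEK293T cells. By edgeR's quasi-likelihood test 0 of 10 members and 1 of 18413 genes (0.00543%) passed, with 1019 genes at an unadjusted p under 0.05, 2 of them members. Log2 changes of the members ran from −0.34 to 0.06 and the smallest adjusted p was 0.851. E2F1 stood at 37.2, 34.8, 35.0 and 34.1 CPM with DMSO and at 27.2, 24.4, 27.3 and 32.5 CPM with the inhibitor. Its groups did not overlap, as for 1.54% of genes in that direction and 1.53% in the other (log2 −0.33, interval −0.57 to −0.08, unadjusted p = 0.0131 in the same edgeR fit).

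E2F7 had a log2 difference of −0.34 (interval −0.61 to −0.08), with 29.6 to 33.4 CPM against 21.3 to 31.1 CPM. RBL1 had one of 0.06 (interval −0.16 to 0.28) and RB1 one of −0.13 (interval −0.36 to 0.10). The intervals of E2F2 (−0.38 to 0.28), E2F3 (−0.28 to 0.12), E2F4 (−0.25 to 0.26) and RBL2 (−0.26 to 0.18) contained 0, as did those of E2F5 and E2F8. None of these 10 intervals reached a change of 1 on the log2 scale. In every list around the family 0 genes were called, with CDKN1A at −0.07 and a median of −0.16 over the p53 targets. ATM itself, whose product the inhibitor targets, stood at 51.5, 52.5, 67.3 and 55.1 CPM with the inhibitor and at 62.9, 72.9, 52.1 and 51.1 CPM with DMSO.

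Replicates 10, 12, 14 and 16, labelled U2OS ATM KO, were set against 11, 13 and 15, labelled U2OS WT, and 17, labelled HEK293T DMSO, all with a HEK293T profile. Of the 10 members 5 were called, 2 higher and 3 lower in replicates 10 to 16, where 34.9% of 19464 genes were called, 17.6% higher and 17.3% lower. E2F3 and RB1 were higher, and E2F4, E2F5 and RBL1 lower. Sets did not overlap for E2F3 (higher, as for 14.8% of genes) and for E2F4, E2F5 and RBL1 (lower, 15.5%), and E2F5 alone passed a log2 fold change over 1, as did 14% of genes. E2F1, E2F2, E2F7, E2F8 and RBL2 were not called. When libraries were grouped strictly by label instead (10, 12, 14 and 16 against 1, 11, 13 and 15, 1 of which has the U2OS profile), 0 members and 778 genes were called.

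E2F5 stood at 25.6, 24.4, 23.2 and 27.8 CPM in replicates 11, 13, 15 and 17 and at 9.84, 10.1, 11.2 and 5.65 CPM in replicates 10, 12, 14 and 16. The sets were well separated (log2 −1.48, SE 0.20, adjusted p = 4.05e-06). RBL1 stood at 41.7, 55.6, 53.4 and 43.4 CPM in the odd and at 28.1, 32.6, 21.2 and 25 CPM in the even replicates (log2 −0.85, SE 0.15, adjusted p = 1.50e-04). E2F4 was nearly constant in the even replicates, 30.9 to 31.6 CPM, and stood at 35.3 to 49.9 CPM in the odd ones (log2 −0.45, adjusted p = 0.0116, or 0.0593 without replicate 11).

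E2F3 stood at 124, 108, 110 and 123 CPM in the odd and at 177, 189, 149 and 162 CPM in the even replicates, without overlap (log2 0.56, SE 0.11, adjusted p = 5.74e-04). RB1 ranged from 32.6 to 62.4 CPM in the odd and from 56.1 to 71.1 CPM in the even replicates, with overlap. Its difference of 0.47 (SE 0.16, adjusted p = 0.0242) was no longer called without replicate 10, 11, 12 or 13. E2F1 ranged from 32.8 to 45.7 CPM and from 34.0 to 43.2 CPM (log2 0.10, interval −0.18 to 0.38). E2F2 had a difference of 0.28 (interval −0.05 to 0.61), which was called without replicate 13 (0.48, adjusted p = 0.0206).

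In these libraries most G2/M genes went against their direction in the U2OS CPT comparison, while CDKN1A and most p53 targets kept it. Of 25 G2/M genes 22 were higher and 1 lower in replicates 10 to 16 (median 0.56), with PLK1 at 0.68, KIF20A at 1.11, MKI67 at 0.86 and BIRC5 at 0.39. Of 30 G1/S genes 5 were higher and 7 lower (median −0.11), with MCM7 at −0.72, MCM2 and GINS2 at −0.51 each and MCM6 at −0.10, the last not called. CDKN1A was higher by 2.17 (SE 0.22), and 9 of 10 p53 targets were higher (median 0.87), GDF15 by 2.94 and MDM2 by 1.14.

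Of 17 cyclin, CDK and inhibitor genes 10 were higher and 3 lower, CCND2 (−0.52) among the latter. CDKN2B (p15), named after its values were seen, stood at 24.6 ± 2.21 CPM against 5.08 ± 1.88 CPM. Of 8 MuvB genes 2 were higher and 1 lower, FOXM1 at 0.63 and LIN52 at −0.51 among them, and of 7 corepressor genes 3 were higher and 1 lower. Among the dimer partners TFDP1 was lower (−0.40). ATM was at 36.5, 34.8, 28.6 and 27.9 CPM in replicates 10 to 16, labelled ATM KO, and at 25.3, 21.1, 31 and 33.2 CPM in 11 to 17, so the transcript did not mark the labelled knockout. A 3′ tag can persist after an edit upstream of it, so whether any of these libraries carries an edited gene was not tested. Of 6 tested U2OS markers 4 were higher and 1 lower in replicates 10 to 16, with summed levels of 206 to 276 against 175 to 187 CPM. Of the 6 HEK293T markers 2 were higher (LHX1 1.35, PAX2 0.71) and 2 lower (EYA1 −0.96, NEFM −0.77), with summed levels of 265 to 350 against 318 to 464 CPM. The part of these markers in the differences was not tested.

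The changes in these 2 comparisons, which share no library, were subtracted in 1 fit. Of the 10 members 3 had a called difference, all lower, where 20.3% of 22363 genes did, 10.5% lower and 9.86% higher. The change of E2F2 was lower in U2OS with CPT by 2.04 on the log2 scale (interval −2.62 to −1.46, adjusted p = 7.24e-07), that of E2F1 by 1.31 (interval −1.76 to −0.86, adjusted p = 2.61e-05) and that of E2F8 by 0.94 (interval −1.59 to −0.29, adjusted p = 0.0374). The E2F8 call was lost without replicate 10, 11, 12, 13, 26, 27, 28, 30, 31 or 32, with an adjusted p up to 0.126. E2F3 (difference −0.51, adjusted p = 0.0613) and RB1 (−0.43, adjusted p = 0.177) were not called, but E2F3 was without replicate 14, 16, 26 or 31 and RB1 without 17 or 33. For RBL1 the 2 changes were −0.92 and −0.85, with a difference of −0.07 and an interval of −0.52 to 0.37. E2F4 (0.10, interval −0.30 to 0.50), RBL2 (0.06, interval −0.30 to 0.41), E2F5 (0.42, interval −0.50 to 1.34) and E2F7 (0.49, interval −0.03 to 1.01) were not called either, except E2F7 without replicate 13 (0.68, adjusted p = 0.0399). Of the 25 G2/M genes 24 had a lower change in U2OS with CPT, and of the 30 G1/S genes 17.

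**Figure D3:**
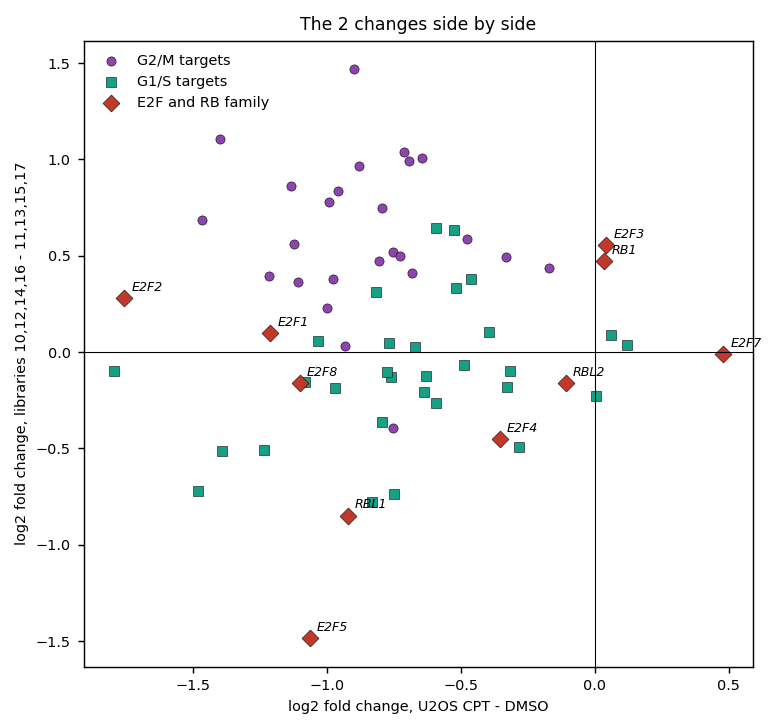
Log2 fold change in U2OS cells with CPT (horizontal axis) against that in replicates 10, 12, 14 and 16 over 11, 13, 15 and 17 (vertical axis), 1 point per gene of the family and of the G1/S and G2/M lists. E2F1, E2F2 and E2F8 lie left of 0 and near 0 vertically, RBL1 and E2F5 are low on both axes, and G2/M genes fill the upper left.

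Replicates 2, 4, 6 and 8, labelled HEK293T CPT, were set against 3, 5 and 7, labelled HEK293T DMSO, and 1, labelled U2OS WT, all with a U2OS profile. Here 2 of the 10 members were called, 1 higher and 1 lower, where 13% of 18591 genes were called, 6.43% higher and 6.56% lower. The sets did not overlap for the same 2 members, as for 7.68% of genes higher and 7.46% lower, and E2F5 alone passed a log2 fold change over 1 (5.24% of genes). E2F2 stood at 4.26, 7.43, 7.29 and 11.5 CPM in replicates 1, 3, 5 and 7 and at 12.3, 11.7, 13.6 and 15.7 CPM in 2, 4, 6 and 8. The sets were just apart (log2 0.72, SE 0.25, adjusted p = 0.0462). The call was lost without replicate 1, 3, 4, 5, 6 or 8, with adjusted p values from 0.0563 to 0.154.

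E2F5 had 4, 9, 6 and 8 counts in the odd and 1, 0, 4 and 5 counts in the even replicates, at or near the floor of 3 counts (log2 −1.92, SE 0.59, adjusted p = 0.0203). This call was lost without replicate 3, 4 or 6. The 8 other members were not called. E2F1 ranged from 29.2 to 35.2 CPM in the odd and from 27.2 to 42.0 CPM in the even replicates (log2 0.06, interval −0.27 to 0.40). RBL1 had a difference of 0.11 (interval −0.24 to 0.46), E2F8 of 0.12 (interval −0.33 to 0.57) and RB1 of −0.31 (interval −0.65 to 0.02).

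Around the family, 2 of 30 G1/S genes were higher and 6 lower, GINS2 (−0.73) among the latter, and 0 of 25 G2/M genes were higher and 1 lower. The p53 targets gave 3 higher of 10, GDF15 by 1.25 and ZMAT3 by 0.46, with CDKN1A at 0.15 and not called. TFDP2, a dimer partner, was higher by 0.77. Of 7 tested MuvB genes 1 was higher and 1 lower, the latter the subunit LIN9 (−0.71). MYBL1, named after its values were seen, stood at 38.9 ± 6.67 CPM in the even and 18.4 ± 1.94 CPM in the odd replicates. CDKN2B, named after its values were seen, had 0 counts in all 4 even replicates and 3 to 8 counts in the odd ones. ATM stood at 66.8, 61.2, 61.1 and 35.4 CPM in replicates 2, 4, 6 and 8 and at 69.0, 78.2, 59.3 and 65.6 CPM in 1, 3, 5 and 7, so no replicate lacked the transcript. Of 7 U2OS markers 3 were higher in the even replicates (CD44 0.54, CAV1 0.65, ANXA1 0.68) and 0 lower, and of 6 HEK293T markers PAX2 alone was called (1.43, higher). PAX2, ANXA1 and NEFM are named after their values were seen. Summed levels were 1098 to 1380 against 936 to 1271 CPM for the U2OS markers and 52.4 to 63.1 against 33.9 to 50.2 CPM for the HEK293T markers, or 29.8 to 37.8 against 18.3 to 36.3 CPM without LHX1. The part of these markers in the differences was not tested.

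Over all 32 libraries, the genes whose log2 levels followed 4 of the members most closely were taken from 9892 genes. For E2F1 they were RIMS4 (Pearson r 0.882), KIF11 (0.878), a mitotic kinesin, and HNRNPA0 (0.857). For RBL1 they were TBL1X (0.963), FANCD2 (0.954), of the Fanconi repair pathway, and the histone gene H4C3 (0.947). E2F8 was followed by CBX2 (0.848), a Polycomb subunit, RMI1 (0.795) and ARL6IP6 (0.794), and RBL2 by PGAP2 (0.769), ABCA5 (0.768) and LINC02210 (0.760). These are descriptions over libraries that share a cell line profile and a treatment in sets of 4. The 9892 genes exclude the family, so members were not compared with each other.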

How the data were processed

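RNA was sequenced with the Lexogen QuantSeq 3′ mRNA FWD kit with UMIs. Raw counts of each gene in 32 libraries were deposited, which the authors obtained from Lexogen's UMI pipeline on the BlueBee platform. The genome build and annotation are not given in the sources used here. The 5 summary rows (10.9 to 40.6% of a column) and 92 spike-ins were left out, and symbols were matched for 56104 of 60107 identifiers.

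Differential expression was tested with edgeR 4.0.16 in R 4.3.3 (quasi-likelihood test after TMM scaling), keeping genes that exceeded 1 count in 2 or more libraries, with p-values adjusted over all genes tested. Intervals are 1.96 SE to each side. The procedure was tested on simulated data. A floor of 3 counts equals 0.472 to 2.43 CPM, for counting error alone. Alternatives were the likelihood ratio test the study used, DESeq2 1.42.0, RLE, filterByExpr, no filter, all libraries in 1 fit, grouping by label, other controls and each library left out. The fit without the 2 shallowest libraries was chosen after seeing the data. No library pair was identical. Members and lists were chosen with earlier results of these data known. Genes named from a list are the 4 with the smallest adjusted p in U2OS CPT, and for patterns the 3 with the highest r (mean log2 CPM over 3).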

Additional observations from a re-analysis of the deposited data

Results flagged for a closer look

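Among 80 sets of 4 libraries, 4 member values stood apart by Dixon's criterion, which by chance flags about 1 in 20 sets. E2F4 stood at 28.3 CPM in U2OS CPT replicate 26, with the other libraries at 20.4 to 21.5 CPM. RBL2 stood at 63.0 CPM in U2OS CPT replicate 29, with the others at 46.2 to 48.0 CPM. E2F5 stood at 13.8 CPM in HEK293T ATM inhibitor replicate 18, with the others at 19.6 to 20.1 CPM, and at 0 in replicate 4, with 0.775 to 0.890 CPM in replicates 2, 6 and 8.

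The change with CPT in U2OS cells differed from the change in replicates 10, 12, 14 and 16 over 11, 13, 15 and 17, by the interaction term of the edgeR fit, for E2F1 (difference −1.31), E2F2 (−2.04) and E2F8 (−0.94). These 2 comparisons differ in cell line profile and share no library. No condition is drawn for replicates 10 to 17, so the parts of line, condition and libraries cannot be told apart.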

How the results depend on the processing

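No paired analysis was run, since the sample labels do not pair the libraries of the groups compared. E2F1, E2F2, E2F8 and RBL1 kept their direction and their call in U2OS with CPT under every other test, scaling, filter and left-out library run, though RBL1 (−0.92) misses the cutoff on fold change, with E2F1 between −1.34 and −1.08 when 1 library was left out. With an absolute log2 fold change over 1, 2569 genes were called in U2OS with CPT, 0 with the ATM inhibitor, 2718 in replicates 10 to 16, 974 in 2 to 8 and 7872 between the lines, with 1 member in each of replicates 10 to 16 and 2 to 8. For the ATM inhibitor, the likelihood ratio test called 5 genes, no filter 16, all 8 libraries labelled DMSO 0, and leaving out 1 library 0 to 97 (97 without replicate 21), with 0 members in each. In replicates 10 to 16, grouping by label called 778 genes and 0 members, and leaving out 1 library 3 to 5 members. In replicates 2 to 8, members called were 0 with DESeq2, 1 with RLE, filterByExpr (which left E2F5 untested) or no filter, 0 to 2 with 1 library left out, and 0 without the 2 shallowest libraries. By label they were 0 (39 genes, against 3, 5, 7 and 17) and 1 (1604 genes, against all 8). Over all members and alternatives, 50 values lost and 11 gained a call, and 53 called in neither setting changed sign, with a size of at most 0.49. The causes were not tested, beyond fewer libraries or genes where the alternative left them out. E2F5 had few counts in U2OS-profile libraries, such as 9 to 23 per library with DMSO and 2 to 11 with CPT. DESeq2 gave it an adjusted p of 0.0969 in U2OS with CPT.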

Other observations

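CDKN2A, the gene of p16 and p14ARF, had at most 9 counts over each set of 4 U2OS-profile libraries and stood at 146 to 426 CPM in HEK293T-profile libraries. The ATM transcript ran from 21.1 to 36.5 CPM in replicates 10 to 17 and from 51.1 to 72.9 CPM in replicates 18 to 25, all with the HEK293T profile. E2F3P1 and E2F4P1, pseudogenes of 2 members, had 0 counts in all libraries, and E2F3P2 had at most 2 in any.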
